A study of Arabidopsis thaliana with 2 samples.

Results

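The 10 genes described here write, keep or remove cytosine methylation in the DNA of Arabidopsis thaliana, and they were taken as a fixed list of locus identifiers: MET1, CMT2, CMT3, DRM2, DDM1, VIM1, ROS1, DME, DML2 and DML3. All 10 are listed in the suspensor library, and 9 are listed in the embryo proper library, of 20029 genes listed in at least 1 library. The samples were the suspensor and the embryo proper of globular-stage embryos of the accession Ws-0, with 1 library of each. The suspensor is the stalk that anchors the embryo to the maternal tissue, and the embryo proper is the sphere above it that forms the seedling. Each tissue was collected by laser microdissection of embedded seeds, cut at 5 or 7 μm, with embryos 24 to 32 μm across. The plants were 38 to 46 days old and carried no mutation or treatment named in the labels.

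Plants methylate cytosine in the CG, CHG and CHH contexts, where H is any base but G. MET1 copies CG methylation onto the new strand after replication, with VIM1, which binds half-methylated DNA, and DDM1, a remodelling ATPase that opens heterochromatin to the methyltransferases. CMT3 maintains CHG methylation and CMT2 mainly CHH methylation, both on nucleosomes that carry methylated lysine 9 of histone H3, and DRM2 is guided to its targets by small RNAs. ROS1, DME, DML2 and DML3 are DNA glycosylases that cut out methylcytosine, after which base excision repair fills in an unmethylated base. In the seed, DME is known for the demethylation of the central cell, the mother cell of the endosperm, and embryos without MET1 and CMT3 are known to divide abnormally.

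The suspensor library held 7189149 reads assigned to genes and the embryo proper library 12716033, both recovered from the deposited RPKM, a read count divided by gene length and library size. With 1 library of each part there was no replicate, so no test was run, and each value describes these 2 libraries. Intervals in parentheses are 95% exact intervals from the recovered reads. They cover counting error only, since the libraries were amplified by PCR and no molecular identifiers are named in the labels. In such bulk samples fewer cells of a type and less RNA per cell cannot be told apart. The markers went with the labels: all 5 suspensor markers, WOX8 among them, were past 2-fold on the suspensor side, and all 5 embryo proper markers, WOX2 among them, on the embryo proper side. Markers of the neighbouring tissues were also present in the suspensor library. All 7 measured of 9 endosperm markers were past 2-fold on the suspensor side, with a summed level of 346.8 RPKM in the suspensor and 22.96 RPKM in the embryo proper, and PHE1 and YUC10 were under 1 RPKM in both. Of 12 seed coat markers, 10 were measured, 9 of them at 1 RPKM or more in the suspensor only, and 9 were past 2-fold on the suspensor side, with sums of 100.9 and 3.84 RPKM in the suspensor and the embryo proper. Measured genes had at least 1 RPKM in at least 1 library, so this filter favours the suspensor side for the seed coat markers. Over all 12 seed coat markers without the filter the median log2 ratio was 2.02. With 5 RPKM added in place of 1 RPKM, 4 seed coat markers were past 2-fold, with a median log2 ratio of 0.79, and with 0.1 RPKM the median was 4.76. TT16 was listed in neither library, and TT2, TT8, BAN and TT10 were not listed in the embryo proper.

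MET1, CMT3 and DDM1 lay on one side of the comparison and the 4 demethylase genes on the other. Of the 10 genes, 5 were past 2-fold on the suspensor side, namely all 4 demethylases and CMT2, and 3 on the embryo proper side, namely MET1, CMT3 and DDM1. DRM2 and VIM1 were within 2-fold. A gene was counted as past 2-fold from the log2 of RPKM plus an added 1 RPKM (the pseudocount), so that differences of genes with low levels are understated. All 10 genes had at least 1 RPKM in at least 1 library. Among all 16975 genes that reached this level, 29.3% were past 2-fold on the suspensor side and 23.1% on the embryo proper side. The median log2 ratio, suspensor over embryo proper, was 1.10 over the 10 genes and 0.13 over all genes tested, and it was the same with DML3 set to its floor of 3 reads. At 4-fold, 3 of the 10 genes were higher in the suspensor (ROS1, DML2 and DML3), against 12.3% of all genes tested, and 1 (CMT3) was higher in the embryo proper, against 8.32%.

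**Figure D1:**
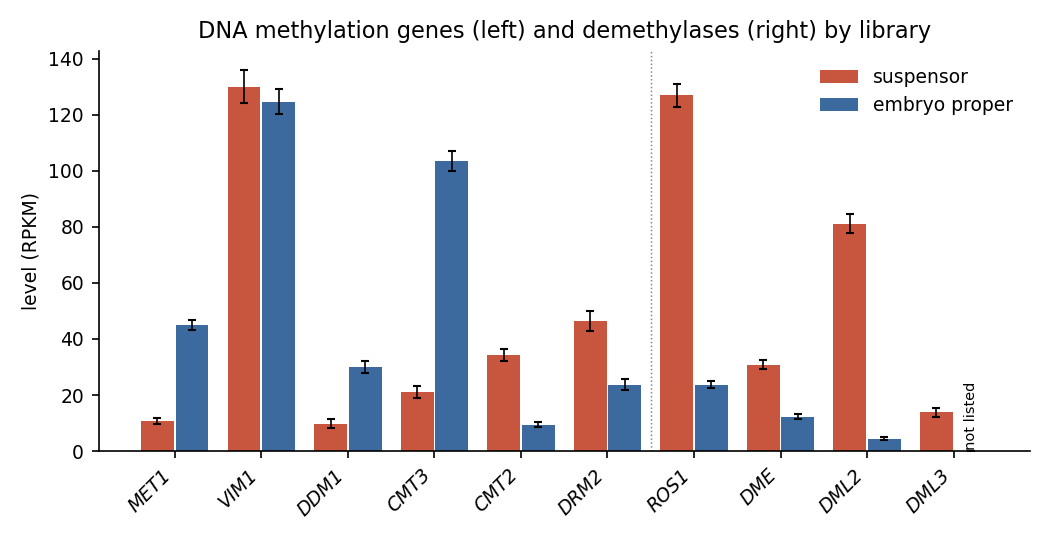
Level of each of the 10 genes in RPKM, with the suspensor library as the left bar of each pair and the embryo proper library as the right bar; error bars are 95% exact Poisson intervals from the recovered reads (counting error only). The tallest suspensor bars are VIM1 at 129.9 and ROS1 at 126.9 RPKM, the tallest embryo proper bars are VIM1 at 124.7 and CMT3 at 103.4 RPKM, and DML3 has no embryo proper bar because it is not listed there.

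MET1 (AT5G49160), the CG maintenance methyltransferase, stood at 10.7 RPKM in the suspensor and 44.9 RPKM in the embryo proper. These levels rested on 355 and 2627 reads in the suspensor and the embryo proper. The suspensor level was 0.239 times that of the embryo proper (0.213 to 0.267). In rank, 48.2% of the genes listed in the suspensor library were at or above the level of MET1, so it sat near the middle of that library, whereas 17.7% of the listed genes were at or above it in the embryo proper.

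DDM1 (AT5G66750), the remodelling ATPase, had the same direction. It stood at 9.76 RPKM in the suspensor and 29.9 RPKM in the embryo proper, a ratio of 0.326 (0.274 to 0.386). VIM1 (AT1G57820), the cofactor that brings MET1 to half-methylated sites, did not share it. VIM1 was the highest of the 10 genes in both libraries, at 129.9 RPKM in the suspensor and 124.7 RPKM in the embryo proper. The interval of its ratio, 1.04 (0.983 to 1.11), included 1, and it was the only 1 of the 9 genes listed in both libraries for which this held. Its direction is not fixed, since the log2 ratio was 0.06 as deposited and −0.04 once the suspensor values were scaled to a median log2 ratio of 0 over the genes listed in both libraries.

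The chromomethylases were divided. CMT3 (AT1G69770), the CHG methyltransferase, stood at 20.9 RPKM in the suspensor and 103.4 RPKM in the embryo proper, from 379 and 3314 reads in the suspensor and the embryo proper. The ratio of 0.202 (0.181 to 0.225) was the lowest of the 10 genes, and 6.15% of all genes tested had a log2 ratio as low. CMT2 (AT4G19020), which acts mainly on CHH sites in heterochromatin, was higher in the suspensor, at 34.3 RPKM against 9.39 RPKM in the embryo proper, a ratio of 3.65 (3.27 to 4.09). The order of the pair was therefore turned round: the level of CMT3 was 0.61 times that of CMT2 in the suspensor and 11.02 times that of CMT2 in the embryo proper.

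DRM2 (AT5G14620), the methyltransferase of the small RNA pathway, stood at 46.3 RPKM in the suspensor and 23.7 RPKM in the embryo proper. Its ratio of 1.96 (1.74 to 2.20) lay just under 2-fold, with an interval that reached past it. On the log2 scale with the pseudocount the value was 0.94, and 30.6% of all genes tested had a log2 ratio as high. With each library scaled to its sum without its 10 most abundant genes, DRM2 passed the threshold with a log2 ratio of 1.21. That scaling moved the median log2 ratio of all genes by 0.25. The most abundant gene of both libraries, AT3G24250, stood at 300168 RPKM in the suspensor and 123480 RPKM in the embryo proper.

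All 4 demethylase genes were higher in the suspensor library. ROS1 (AT2G36490), the main demethylase of vegetative tissue, stood at 126.9 RPKM in the suspensor and 23.7 RPKM in the embryo proper, from 3814 and 1259 reads in the suspensor and the embryo proper. Its ratio was 5.36 (5.03 to 5.72), and 8.95% of all genes tested had a log2 ratio as high. ROS1 transcript is itself known to be low in mutants without MET1 or the small RNA pathway.

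DML2 (AT3G10010), a paralogue of ROS1, had the largest ratio among the 9 genes listed in both libraries. It stood at 81.1 RPKM in the suspensor and 4.37 RPKM in the embryo proper, a ratio of 18.6 (16.2 to 21.4), and 2.21% of all genes tested had a log2 ratio as high. DML3 (AT4G34060), the remaining paralogue, stood at 13.8 RPKM in the suspensor on 311 reads and had no entry for the embryo proper. Genes with a single read are listed in both files, so a gene with no entry was set to 0 reads. As a floor for DML3 in the embryo proper 3 reads were taken, which is 0.0753 RPKM. The 95% exact Poisson upper limit for 0 reads is higher, at 0.0925 RPKM. Against the floor of 3 reads DML3 was 183-fold higher in the suspensor, a value that is not a 95% bound.

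DME (AT5G04560), the demethylase of the central cell, had the smallest ratio of the family. It stood at 30.8 RPKM in the suspensor and 12.3 RPKM in the embryo proper, a ratio of 2.51 (2.30 to 2.73). DML2 was thus 2.64 times as high as DME in the suspensor and 0.356 times as high as DME in the embryo proper. Beside the 4 demethylases, the endosperm markers had a median log2 ratio of 2.62 and the seed coat markers one of 2.22, and with the unlisted seed coat genes at the floor of 3 reads the seed coat median was 2.03. Ratios without a pseudocount were also compared, with an unlisted gene set at the floor of 3 reads. By these, all 7 measured endosperm markers were above ROS1, DME and CMT2, and 2 were above DML2. By the same measure all 10 measured seed coat markers were above ROS1, DME and CMT2, and 7 were above DML2, several of them on 1 to 3 embryo proper reads. DML3, at 183 against its floor, was above all of these markers, the highest being LDOX at 116.9 and IKU2 at 102.5. Of the measured markers, 9 of the 10 seed coat and 2 of the 7 endosperm genes reached 1 RPKM in the suspensor only. The filter on low values therefore favours high ratios in these lists. With 1 RPKM added, 5 of the 7 endosperm and 4 of the 10 seed coat markers were at or above ROS1. By that measure 1 of each list was at or above DML2, and 1 of each at or above DML3. The part of these tissues in the levels of the 5 genes, and of the other genes below that were higher in the suspensor, was not tested.

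**Figure D2:**
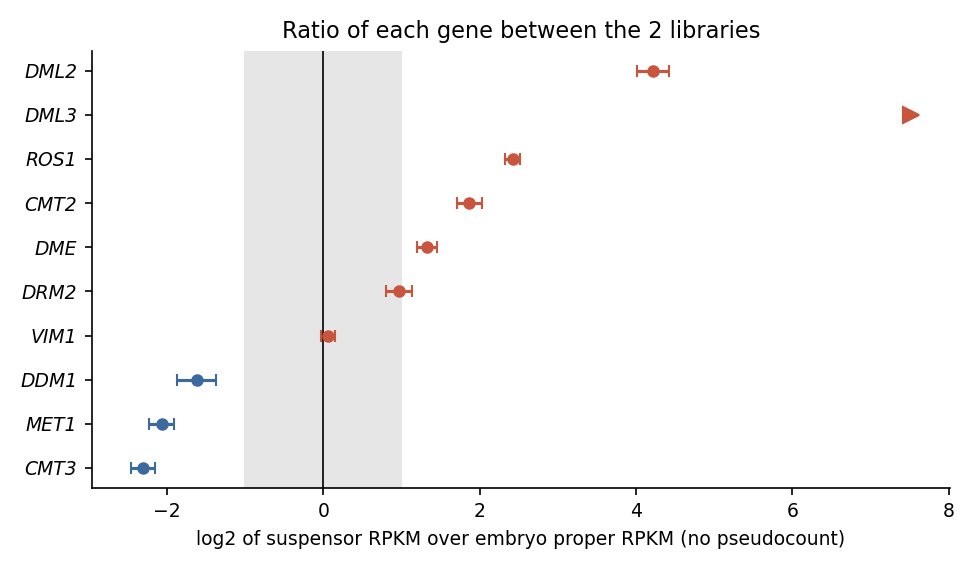
Ratio of suspensor to embryo proper RPKM for each gene on a log2 axis, without a pseudocount; points are the ratios, horizontal bars their 95% exact binomial intervals (counting error only), and the arrowhead for DML3 is the ratio against a floor of 3 reads, not a 95% bound. The grey band marks less than 2-fold; CMT3, MET1 and DDM1 lie to its left, and DML2, DML3, ROS1, CMT2 and DME to its right.

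Within each library the 10 genes were ranked by RPKM, a level per length. Evenness of coverage along the transcripts was not examined, so the order of genes of unlike length is less certain than their counting intervals. In the suspensor the order was VIM1, ROS1, DML2, DRM2, CMT2, DME, CMT3, DML3, MET1 and DDM1. The Poisson intervals of 3 neighbouring pairs overlapped there, VIM1 with ROS1, CMT2 with DME, and MET1 with DDM1. In the embryo proper the order was VIM1, CMT3, MET1, DDM1, ROS1, DRM2, DME, CMT2 and DML2, and the intervals of 1 neighbouring pair, ROS1 with DRM2, overlapped. ROS1 was 11.8 times as high as MET1 in the suspensor and 0.528 times as high in the embryo proper.

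Summed over the family, the demethylases reached 252.6 RPKM in the suspensor and 40.3 RPKM in the embryo proper, a ratio of 6.26. They made up 50.1% of the summed level of the 10 genes in the suspensor, against 10.7% in the embryo proper. The 4 methyltransferases, MET1, CMT2, CMT3 and DRM2, summed to 112.2 RPKM in the suspensor and 181.3 RPKM in the embryo proper, a ratio of 0.619. Set against each other within a library, the summed demethylase level was 2.25 times the summed methyltransferase level in the suspensor and 0.222 times in the embryo proper.

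**Figure D3:**
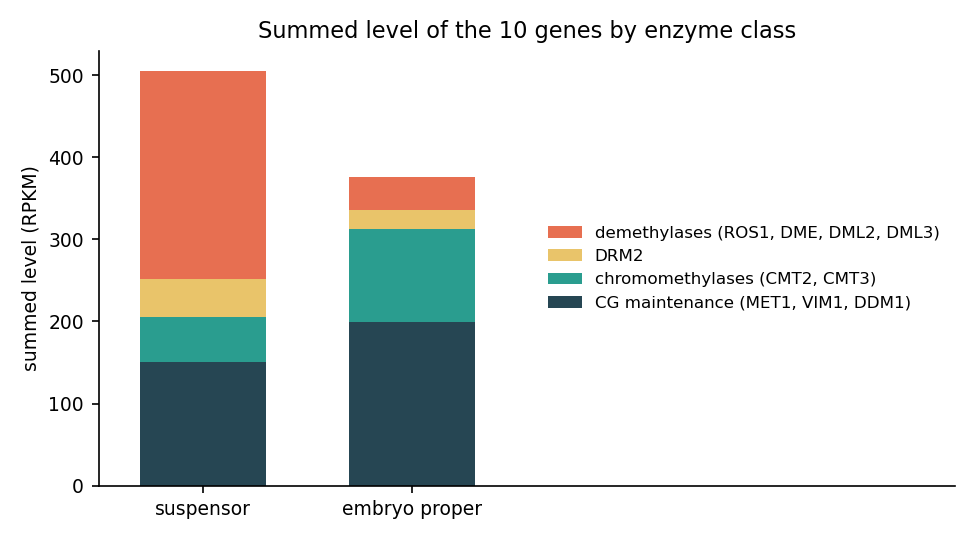
Summed level in RPKM of the 10 genes in the suspensor library (left bar) and the embryo proper library (right bar), divided by enzyme class. The demethylase segment is 252.6 RPKM of 504.4 in the suspensor and 40.3 RPKM of 376.2 in the embryo proper, and the segment of MET1, VIM1 and DDM1 is 150.4 and 199.4 RPKM in the suspensor and the embryo proper.

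Most DNA replication genes were lower in the suspensor, as were MET1, CMT3 and DDM1. Of 21 replication genes, all measured, 0 were past 2-fold on the suspensor side and 12 (57.1%) on the embryo proper side. The shares over all genes tested were 29.3% and 23.1%, and the median log2 ratio of the 21 was −1.21. Together they reached 487.4 RPKM in the suspensor and 1857 RPKM in the embryo proper, and none was at 0. TOPII, a topoisomerase, stood at 24.4 RPKM in the suspensor and 205.3 RPKM in the embryo proper, and PCNA2, the replication clamp, at 41.6 and 330.3 RPKM in the suspensor and the embryo proper. The ribonucleotide reductase genes RNR1 and TSO2, which supply deoxynucleotides, were at 20.3 and 73.5 RPKM in the suspensor and 128.3 and 414.2 RPKM in the embryo proper. ORC1A, a subunit of the origin recognition complex, was at 15.1 RPKM in the suspensor and 8.12 RPKM in the embryo proper, within 2-fold. With each library scaled to its sum without its 10 most abundant genes, 1 of the 21 was past 2-fold on the suspensor side and 10 on the embryo proper side. The shares over all genes tested were then 34.5% and 18.8%. Of the 21, 5 had a log2 ratio at or below that of MET1, 4 at or below that of CMT3 and 7 at or below that of DDM1. The part of the number of dividing cells in the levels of these 3 genes was not tested.

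E2F-type motifs, which mark many genes of DNA replication, were searched on both strands from 250 bases before to 50 bases after the annotated start of each gene in the RefSeq assembly TAIR10.1, which is of the accession Columbia. The motifs were TTTCCCGC, TTTGGCGC, TTTCGCGC and TTTGCCGC, and matches at the same place were counted once. Of 27443 windows of protein-coding genes 1.76% held at least 1, as did 10 of the 21 replication genes. Among the 10 genes 2 held a match, and these went in opposite directions between the libraries. The match of CMT3 begins at base 23 of the annotated 5′ UTR, and that of ROS1 begins 30 bases before the start of the gene. Both stretches are shown 5′ to 3′ on the strand of the gene with the motif in capitals, because they are the matches found.
CMT3, chr1:26253647-26253676, minus strand: aaacccatcacTTTGGCGCttatgtgacgc
ROS1, chr2:15314808-15314863, minus strand: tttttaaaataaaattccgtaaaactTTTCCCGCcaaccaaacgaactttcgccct
A match is a run of letters in the reference sequence, and the samples were of another accession. The windows of MET1 and DDM1 held no match.

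Relatives of the 10 genes in the same families lay on both sides. Of 12 relatives, all measured, 5 (41.7%) were past 2-fold on the suspensor side and 3 (25%) on the embryo proper side, against 29.3% and 23.1% of all genes tested, with a median log2 ratio of 0.28. Many of them had low levels, and 3 of the 12 reached 1 RPKM in the suspensor only, so the filter on low values favours that side. With 5 RPKM added 1 relative was past 2-fold on each side, against 17.8% and 15% of all genes tested. The 3 homologues of MET1 were low and were higher in the suspensor, opposite to MET1. DMT2 (AT4G14140) stood at 3.36 RPKM in the suspensor and 1.10 RPKM in the embryo proper, and AT4G08990, annotated as a DNA cytosine methyltransferase, at 2.70 and 0.676 RPKM in the suspensor and the embryo proper. These 2 share 11.3% and 11.2% of their 50-base stretches of coding sequence with other genes, so that reads could pass between them. MEE57 (AT4G13610), of the same annotation, stood at 1.78 RPKM in the suspensor on 54 reads and 0.019 RPKM in the embryo proper on 1 read, a ratio of 93.8 (16.4 to 3842).

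CMT1, the third chromomethylase, stood at 2.87 RPKM in the suspensor and 0.364 RPKM in the embryo proper, on 49 and 11 reads in the suspensor and the embryo proper. DRM3, a catalytically changed relative of DRM2, was within 2-fold at 15.4 RPKM in the suspensor and 12.0 RPKM in the embryo proper. DRM1 stood at 2.37 RPKM in the suspensor and 1.89 RPKM in the embryo proper, with an interval of the ratio that included 1 (0.774 to 2.02). DNMT2, a relative known to methylate transfer RNA, was at 7.25 RPKM in the suspensor and 7.24 RPKM in the embryo proper.

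The VIM genes, which encode RING proteins of the same kind as VIM1, went both ways. VIM3 stood at 20.6 RPKM in the suspensor and 57.6 RPKM in the embryo proper, a ratio of 0.358 (0.314 to 0.408). VIM2 and VIM4 were lower and had the same direction, at 4.31 and 1.41 RPKM in the suspensor and 9.62 and 4.12 RPKM in the embryo proper. They share 82.4% and 82.7% of their 50-base stretches with other genes, so their separate levels are uncertain. VIM5 (AT1G57800) lay on the suspensor side: it stood at 37.7 RPKM in the suspensor and 2.50 RPKM in the embryo proper, a ratio of 15.1 (11.6 to 19.9), and shared 0.257% of its stretches with another gene. ORTHL, a shorter relative, was at 22.7 RPKM in the suspensor and 20.1 RPKM in the embryo proper. None of the 50-base stretches of the 10 genes themselves was found in the coding sequence of another gene, and none of the 10 overlaps another annotated gene.

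**Figure D4:**
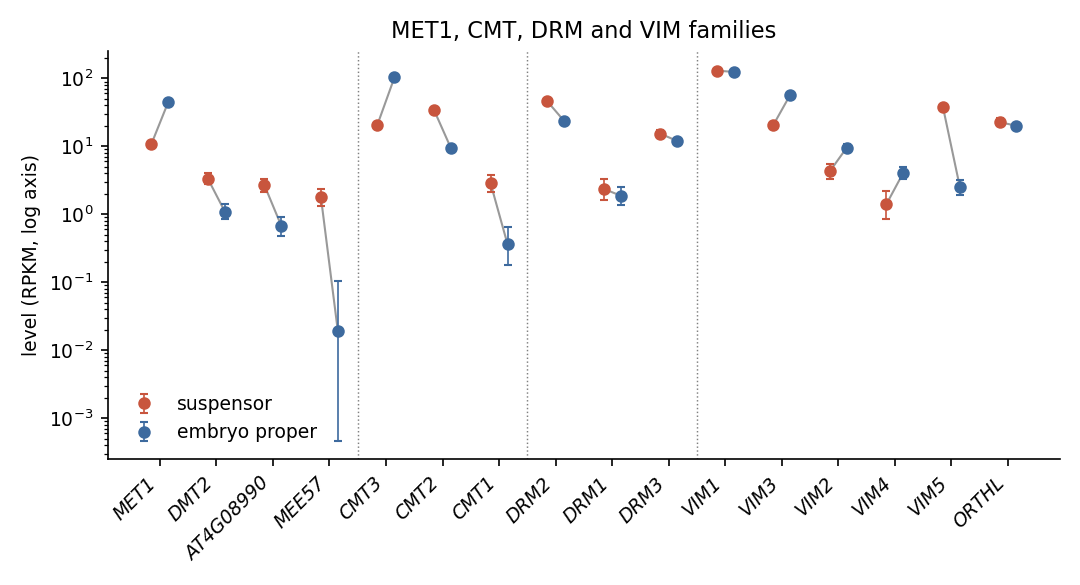
Level in RPKM on a log axis of the MET1, CMT, DRM and VIM families (separated by dotted lines), with the suspensor library as the left point and the embryo proper library as the right point of each pair; bars are 95% exact Poisson intervals (counting error only). MET1, CMT3, VIM2, VIM3 and VIM4 slope upwards to the embryo proper, and VIM5, CMT2, CMT1, DMT2, AT4G08990 and MEE57 slope downwards.

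In the small RNA pathway that guides DRM2, CLSY1 and NRPD1 were far higher in the suspensor and AGO9 was far higher in the embryo proper. Of 27 genes, all measured, 10 (37%) were past 2-fold on the suspensor side, against 29.3% of all genes tested, and 3 (11.1%) on the embryo proper side, against 23.1%. The median log2 ratio was 0.80, against 0.13 over all genes tested. With the suspensor scaled to a median log2 ratio of 0, the counts were 8 and 4, against 27.2% and 24.9% of all genes. With 5 RPKM added they were 8 and 2, against 17.8% and 15%. With each library scaled to its sum without its 10 most abundant genes they were 14 and 2, against 34.5% and 18.8%. CLSY1 (AT3G42670), a remodelling factor that brings RNA polymerase IV to its sites, stood at 258.6 RPKM in the suspensor and 9.47 RPKM in the embryo proper, a ratio of 27.3 (24.8 to 30.1). NRPD1 (AT1G63020), the largest subunit of that polymerase, was at 30.2 RPKM in the suspensor and 1.298 RPKM in the embryo proper, a ratio of 23.3 (18.3 to 29.99). Both thus had a larger ratio than DRM2.

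CHR42 (AT5G20420), annotated as a chromatin remodelling gene as CLSY1 is, stood at 10.07 RPKM in the suspensor on 274 reads and 0.021 RPKM in the embryo proper on 1 read. A gene of the same annotation, chr31 (AT1G05490), lay on the other side, with 2.00 RPKM in the suspensor and 6.76 RPKM in the embryo proper. IDN2, a double-stranded RNA-binding protein, was the most abundant of the pathway in both libraries, at 985.1 RPKM in the suspensor and 270.0 RPKM in the embryo proper. The Argonaute AGO9 was the gene furthest to the embryo proper side, at 3.46 RPKM in the suspensor and 94.4 RPKM in the embryo proper, a ratio of 0.0367 (0.0284 to 0.0467). AGO4, the main Argonaute of the pathway, was within 2-fold, at 74.6 RPKM in the suspensor and 98.3 RPKM in the embryo proper. RDM4, a polymerase assembly factor, was at 22.3 RPKM in the suspensor and 53.6 RPKM in the embryo proper.

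Genes for the histone mark that the chromomethylases read, with other silencing and linker histone genes, lay on both sides. Of 13 genes 12 were measured, with 3 (25%) past 2-fold on each side, against 29.3% and 23.1% of all genes tested. The median log2 ratio was 0.12, close to the 0.13 over all genes. With 5 RPKM added, 1 was past 2-fold on the suspensor side, against 17.8% of all genes tested. The lysine 9 methyltransferases SUVH5 and SUVH6 were higher in the suspensor, SUVH5 at 30.6 RPKM against 12.5 RPKM in the embryo proper and SUVH6 at 12.5 RPKM against 4.04 RPKM in the embryo proper. SUVH4, the methyltransferase most closely tied to CMT3, was at 18.0 RPKM in the suspensor and 14.6 RPKM in the embryo proper, within 2-fold. MOM1, a silencing factor, stood at 9.15 RPKM in the suspensor and 2.92 RPKM in the embryo proper. MSI4, a histone-binding protein, was lower in the suspensor, at 44.6 RPKM against 233.4 RPKM in the embryo proper, and AT2G30620 and AT1G06760, annotated as winged-helix DNA-binding proteins, were at 200.2 and 118.2 RPKM in the suspensor and 744.6 and 426.1 RPKM in the embryo proper.

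The partners of the demethylases lay mostly within 2-fold or on the embryo proper side. Of 16 genes for targeting and for the repair that follows excision, all measured, 1 (6.25%) was past 2-fold on the suspensor side and 5 (31.2%) on the embryo proper side. The shares over all genes tested were 29.3% and 23.1%, and the median log2 ratio of the 16 was −0.51. With each library scaled to its sum without its 10 most abundant genes, the counts were 2 and 4, against 34.5% and 18.8% of all genes tested. The AP endonuclease gene ARP, whose product cuts the strand after the base is removed, stood at 4.92 RPKM in the suspensor and 13.6 RPKM in the embryo proper. XRCC1, a repair scaffold, was at 18.9 RPKM in the suspensor and 44.9 RPKM in the embryo proper, and ROS3, an RNA-binding protein needed for demethylation by ROS1, was at 26.1 RPKM in the suspensor and 75.1 RPKM in the embryo proper. AT3G48425 and AT4G36050, annotated as nuclease family members, stood at 2.92 and 3.79 RPKM in the suspensor and 11.9 and 13.1 RPKM in the embryo proper. The gene on the suspensor side was IDM2, a small heat shock-like protein that helps to target ROS1, at 37.1 RPKM in the suspensor and 11.2 RPKM in the embryo proper. LIG1, the DNA ligase that closes the gap, was at 43.2 RPKM in the suspensor and 45.8 RPKM in the embryo proper. SSRP1, a histone chaperone subunit that works with DME, had the highest level of this list and was at 78.3 RPKM in the suspensor and 114.1 RPKM in the embryo proper.

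Genes that supply the methyl group were past 2-fold about as often as other genes. Of 9 genes, all measured, 3 (33.3%) were so on the suspensor side and 2 (22.2%) on the embryo proper side, against 29.3% and 23.1% of all genes tested, with a median log2 ratio of −0.46. HOG1 (AT4G13940), the main enzyme that clears S-adenosylhomocysteine, stood at 572.4 RPKM in the suspensor and 2038 RPKM in the embryo proper, whereas its relative SAHH2 was at 5.92 RPKM in the suspensor and 1.295 RPKM in the embryo proper. Among the S-adenosylmethionine synthetases MAT3 was higher in the suspensor, at 56.2 RPKM against 17.9 RPKM in the embryo proper, and the other 3 were within 2-fold. AT3G12290, annotated as an amino acid dehydrogenase family gene, was at 81.3 RPKM in the suspensor and 27.6 RPKM in the embryo proper, and ADK2, an adenosine kinase, at 28.4 and 68.5 RPKM in the suspensor and the embryo proper.

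In a list of 6 genes for proteins that read methylated DNA, or that carry a methyl-CpG-binding domain, all were lower in the suspensor or within 2-fold. The list is not the whole class. MBD7, counted with the demethylation partners, was at 23.6 RPKM in the suspensor and 14.5 RPKM in the embryo proper. VIM5, counted with the relatives of VIM1, was at 37.7 and 2.50 RPKM in the suspensor and the embryo proper. Of the 6 genes, all measured, 0 were past 2-fold on the suspensor side and 4 (66.7%) on the embryo proper side. The shares over all genes tested were 29.3% and 23.1%, and the median log2 ratio of the 6 was −1.38. MBD10 stood at 117.3 RPKM in the suspensor and 1039 RPKM in the embryo proper, a ratio of 0.113 (0.106 to 0.120). MBD11 was at 7.46 RPKM in the suspensor and 35.4 RPKM in the embryo proper, MBD6 at 5.54 and 18.3 RPKM and MBD5 at 7.85 and 19.2 RPKM in the suspensor and the embryo proper. MBD5 and MBD6 are known to bind methylated CG sites. SUVH1 and SUVH3, which bind methylated promoters, were within 2-fold.

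In a list of imprinted or methylation-dependent genes, called methylation-controlled genes below, SDC, FWA and HDG3 were higher in the suspensor. Of 12 genes 9 were measured, 8 of them (88.9%) past 2-fold on the suspensor side and 0 on the embryo proper side. The shares over all genes tested were 29.3% and 23.1%, and the median log2 ratio of the 9 was 2.29. Of these 9 genes 5 (MEA, FIS2, HDG8, HDG9 and MPC) reached 1 RPKM in the suspensor only, so the filter on low values favours that side. Over all 12 genes without the filter the median was 1.76, and with 5 RPKM added 5 of the 9 were past 2-fold, with a median of 1.02. MPC rested on 5 reads in the suspensor and 1 read in the embryo proper, and the interval of its ratio included 1 (0.99 to 418.3). SDC, an F-box gene silenced through DRM2 and CMT3, stood at 71.9 RPKM in the suspensor and 13.3 RPKM in the embryo proper, a ratio of 5.41 (4.63 to 6.34). HDG3 and HDG9, homeobox genes imprinted in the endosperm, were at 14.5 and 6.06 RPKM in the suspensor and 1.3 and 0.438 RPKM in the embryo proper. FWA, an imprinted homeobox gene, was at 40.1 RPKM in the suspensor and 5.84 RPKM in the embryo proper, and the formin gene FH5 was within 2-fold at 9.73 and 7.30 RPKM in the suspensor and the embryo proper. The list shares 3 of its 12 genes with the endosperm markers, and others of it, HDG3 and HDG9 among them, are imprinted in the endosperm too. The endosperm markers beside it had a median log2 ratio of 2.62, and their part in these levels was not tested.

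**Figure D5:**
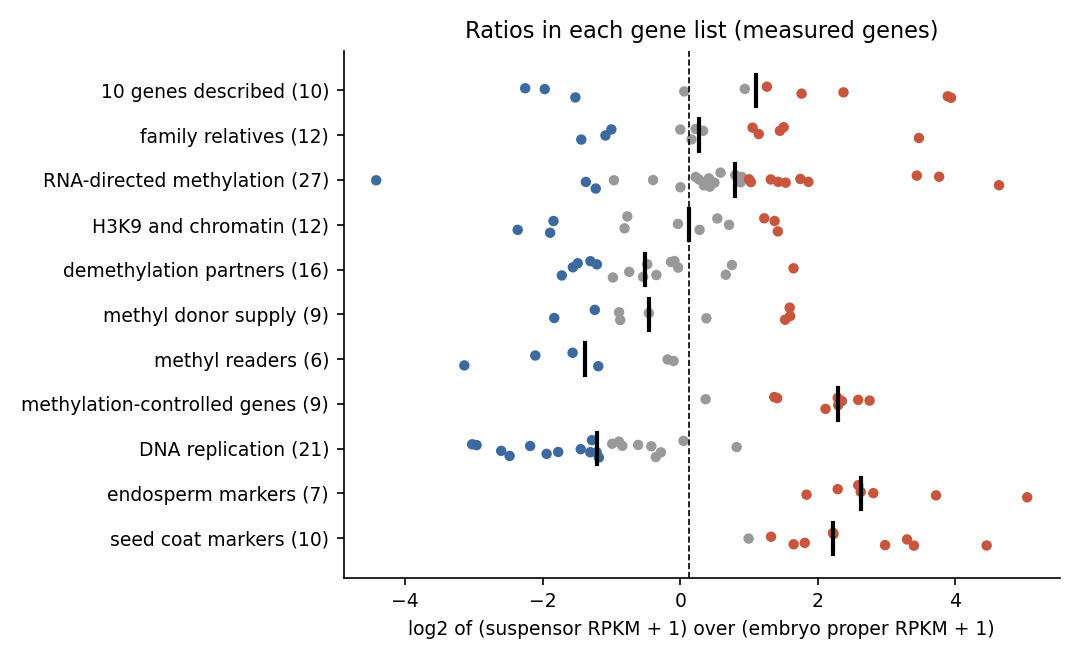
Log2 of the ratio of suspensor to embryo proper level after adding 1 RPKM, for each measured gene (points; number of genes in parentheses) of the 10 genes and 10 other lists; black bars are list medians, the dashed line is the median of all 16975 genes tested, and points past 2-fold are coloured. The medians run from −1.38 for methyl readers and −1.21 for replication genes to 2.29 for methylation-controlled genes and 2.62 for endosperm markers.

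Genes often used as references were also compared. Of 8 such genes 1 (12.5%) was past 2-fold on the suspensor side and 1 (12.5%) on the embryo proper side. The shares over all genes tested were 29.3% and 23.1%. The median log2 ratio of the 8 was −0.11, and it was 0.16 with each library scaled to its sum without its 10 most abundant genes. UBQ10, a polyubiquitin gene, stood at 157.9 RPKM in the suspensor and 175.1 RPKM in the embryo proper, and ACT2, an actin gene, at 30.9 RPKM in the suspensor and 116.6 RPKM in the embryo proper. The ratio of ACT2 was 0.265 (0.231 to 0.303). The intervals of MET1 and DDM1 overlapped it, and that of CMT3 lay below it. On the suspensor side AT2G28390, annotated as a SAND family protein, stood at 32.7 RPKM in the suspensor and 13.4 RPKM in the embryo proper. Its ratio was 2.45 (2.11 to 2.84). The intervals of DME and DRM2 overlapped that of AT2G28390, and those of CMT2, ROS1 and DML2 lay above it.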

How the data were processed

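The data were 2 deposited tables, 1 per library. Per the labels' protocols, 15 ng of total RNA was amplified to cDNA and the libraries passed 15 cycles of PCR. The authors' values are RPKM per the file headers, and genes at 0 are not listed. Per the submitters' processing notes, the tools included HTSeq 0.6.1 and HISAT2 2.0.6, with TAIR10 as genome. Their settings, and the gene lengths, were not given in the sources used here.

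Reads were recovered with RefSeq TAIR10.1 coding lengths, by a search for the read total at which values from 0.2 RPKM up to 15 reads become whole (within 0.05). Among genes with a single coding length 97.0% of such values in the suspensor did so, against 96.9% in the embryo proper. For each listed gene the longest coding length that gave whole reads was used, and such a length was found for all 10 described genes. By chance 10% of values would be whole within 0.05. DML3, with 5 coding lengths, could be matched in the suspensor only, at 3135 bases. Its longest, of 3318 bases, would give 329 reads there in place of 311.

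Ratios are suspensor over embryo proper, as log2(RPKM + 1) for counts and medians and without a pseudocount beside intervals. Genes counted had at least 1 RPKM in at least 1 library, an unlisted value being 0. Genes named are the 10, and from each other list up to 4 per direction by size, the most abundant, and some more chosen after their values were seen. The marker and reference lists did not follow this rule, and only some of their genes are named. Symbols are those of RefSeq or common names, such as DDM1, ROS1, CLSY1 and IDM2. Some genes are given by their RefSeq symbol or identifier only. The genes and lists were chosen with earlier results of these data known. Alternatives were other pseudocounts, scalings, filters and thresholds. Python 3.11.15, numpy 2.4.6, pandas 2.3.3 and scipy 1.17.1 were used.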

Additional observations from a re-analysis of the deposited data

How the results depend on the processing

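Of the 10 genes, 9 kept their direction and 9 their side of 2-fold under all 6 alternative pseudocounts and scalings; VIM1 changed direction and DRM2 passed 2-fold, as given above. The counts of 5 genes on the suspensor side and 3 on the embryo proper side became 3 and 1 at 4-fold, which is a stricter limit by construction. Scaling to the sum without the 10 most abundant genes gave a median log2 ratio of 1.36 over the 10 genes, against 1.10 as deposited, and moved the median of all genes by 0.25. Filters of 0 and 10 RPKM removed none of the 10. The log2 ratio of DML3 was 1.91 at a pseudocount of 5 RPKM and 7.12 at 0.1 RPKM, since it is set by the pseudocount where a library is at 0. For the other lists, counts and medians were taken under 2 other pseudocounts, a median scaling, no filter, and the scaling without the 10 most abundant genes, which was added after seeing the data. Of these 195 values 157 stayed close, 38 moved, and 0 medians of at least 2-fold changed sign. With 5 RPKM added, counts on the suspensor side became 1 of 12 relatives, against 5, 4 of 10 seed coat markers, against 9, 5 of 9 methylation-controlled genes, against 8, and 1 of 12 chromatin genes, against 3. The scaling without the most abundant genes took the embryo proper side of the relatives to 1, against 3, and that of the methyl donor genes to 1, against 2. Over all genes tested, 17.8% were past 2-fold on the suspensor side and 15% on the embryo proper side with 5 RPKM added. With the scaling without the most abundant genes these shares were 34.5% and 18.8%. No paired analysis was possible because each part has 1 library and no result comes from a test, and for the same reason no library could be left out.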
